A study of Homo sapiens with 12 samples.

Results

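NFE2L2, KEAP1 and 8 antioxidant and detoxification genes (NQO1, HMOX1, TXNRD1, SRXN1, GCLC, GCLM, SLC7A11 and AKR1C1) were followed in Sk-hep1 cells across growth medium and high-fat medium. The genes were chosen by symbol, as 10 of the 19775 genes on the array, and each was read at the probe set with the highest mean over the 12 arrays. Another 53 genes of the same pathway were listed for comparison. Sk-hep1 is an established human line from ascites of a liver adenocarcinoma, which the labels class as endothelial. There were 4 groups of 3 Affymetrix arrays: cells given growth medium (GM, based on DMEM) for 12 hours, high-fat medium (HFM), which was made on DMEM/F12, for 12 hours, and each medium for 24 hours. All cells had been grown in DMEM with foetal bovine serum, antibiotics and L-glutamine. No source used here names the fat, and its effect and that of the other basal medium cannot be told apart. Nothing in the labels tells whether replicates came from separate cultures, and p-values then measure the spread between these arrays alone, which may be technical.

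NFE2L2 encodes NRF2, a transcription factor that switches on antioxidant and detoxification genes through antioxidant response elements in their regulatory regions. In resting cells KEAP1, an adaptor of the CUL3 and RBX1 ubiquitin ligase, binds NRF2 and sends it to the proteasome. Oxidants and electrophiles modify cysteines of KEAP1, NRF2 then accumulates, pairs with small MAF proteins and competes with the repressor BACH1. NRF2 is regulated mainly at the protein level, and the arrays measured transcripts only.

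The arrays differed in ways that touch the results below. The mean of 10 hybridisation control probe sets, which are spiked in and do not come from the cells, was between 9.10 and 9.15 on the log2 scale on 4 arrays (the 3 GM arrays at 12 hours and HFM replicate 1 at 12 hours) and between 8.64 and 8.90 on the other 8. All 6 arrays at 24 hours were in the lower class. At 24 hours the log2 excess of the 3' over the 5' signal of ACTB, which reflects RNA integrity, averaged 1.07 ± 0.05 (SD, n = 3) on the GM arrays and 1.58 ± 0.06 on the HFM arrays (exact two-sided permutation p = 0.1, the smallest that 3 against 3 arrays allow). At 12 hours it was 0.89 ± 0.03 in GM and 0.84 ± 0.13 in HFM, so that it was higher at 24 hours in both media, by more in HFM. Its part in the results at 24 hours and in those by time was not tested.

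Markers of cell types also differed between the groups. Of 6 endothelial markers, ROBO4 and PECAM1 passed the filter on low values, while CDH5, VWF, KDR and TEK reached at most log2 2.77, 3.37, 2.33 and 3.69 on any array. ROBO4 was lower in HFM by -1.02 (adjusted p = 2.6e-06) at 12 hours and -0.78 (adjusted p = 1.3e-05) at 24 hours, and PECAM1 by -0.37 (adjusted p = 0.03) at 12 hours. The group means of PECAM1 ran from 4.01 to 4.45, near the filter at log2 4. The log2 of the summed level of the 6 ranged from 7.79 to 7.85 in GM and 6.87 to 7.10 in HFM at 12 hours, and from 7.31 to 7.48 and 6.72 to 6.97 at 24 hours. Levels were summed before the log, so ROBO4, the highest of the 6 in every group, weighs most in it. Of the hepatocyte markers 3 of 6 were tested (TTR, SERPINA1 and CYP3A4, at most 5.74 on any array) and ALB reached 2.47. Sums of that list ranged from 7.17 to 7.22 in GM and 7.03 to 7.13 in HFM at 12 hours. At 24 hours they ranged from 7.01 to 7.05 and 7.15 to 7.23. TTR was at -0.38 (adjusted p = 0.000885) in HFM at 12 hours and 0.22 (adjusted p = 0.02) at 24 hours. CYP3A4 was called at 12 hours, at 0.21 (adjusted p = 0.024), and SERPINA1 at 24 hours, at 0.54 (adjusted p = 0.00035). Of the leukocyte markers 2 of 4 were tested (CD14 and CD79A, at most 6.46) and PTPRC reached 2.46, with CD14 at -0.78 (adjusted p = 0.00017) in HFM at 12 hours and sums from 7.11 to 7.24 in GM at 12 hours and 6.55 to 6.83 in the other groups. Of the epithelial markers 3 of 5 were tested (KRT8, KRT18 and KRT19), and EPCAM and CDH1 reached at most 3.06 and 2.91 on any array. KRT19 was at -0.70 (adjusted p = 3.5e-06) in HFM at 12 hours and -0.24 (adjusted p = 0.0063) at 24 hours. KRT18 was at -0.13 (adjusted p = 0.044) and -0.26 (adjusted p = 0.00072). KRT8 was at -0.16 (adjusted p = 0.06) and 0.04 (adjusted p = 0.635) and not called. Sums of the list ranged from 14.47 to 14.52 in GM and 14.22 to 14.39 in HFM at 12 hours. At 24 hours they ranged from 14.12 to 14.19 and 13.95 to 14.03. The part of these differences in the results was not tested.

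The core of the antioxidant response element, TGACNNNGC (N stands for any base), was searched on both strands in the RefSeq promoter windows (GRCh38.p14, 250 bases before to 50 after each start), without any other motif. Windows were at hand for 8 of the 10 genes, with 2 starts each for NFE2L2, KEAP1 and TXNRD1. HMOX1 and SLC7A11 had no window and were not searched. Bases outside the windows were not searched for any gene, so a gene without a match here may hold the element elsewhere. The core was in 4 of these 11 windows, which belong to KEAP1, TXNRD1 and GCLM, and in 13.3% of all 35116 windows. The 110 bases before the starts of those 4 windows, which are all that held a match, are shown 5′ to 3′ on the strand of the gene. Capitals mark the core or its reverse complement.
KEAP1, chr19:10502772-10502881, minus strand: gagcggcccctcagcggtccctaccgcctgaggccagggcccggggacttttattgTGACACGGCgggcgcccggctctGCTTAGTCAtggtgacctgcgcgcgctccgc
TXNRD1, chr12:104215669-104215778, plus strand: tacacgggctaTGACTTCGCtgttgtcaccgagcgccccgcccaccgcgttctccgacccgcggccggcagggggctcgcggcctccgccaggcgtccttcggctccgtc
TXNRD1, chr12:104286922-104287031, plus strand: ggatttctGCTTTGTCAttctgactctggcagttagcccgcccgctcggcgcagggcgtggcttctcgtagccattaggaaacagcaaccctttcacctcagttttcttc
GCLM, chr1:93909431-93909540, minus strand: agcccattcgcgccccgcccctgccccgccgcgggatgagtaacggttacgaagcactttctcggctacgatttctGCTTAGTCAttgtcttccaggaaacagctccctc
KEAP1 and GCLM held the same 9 letters, gcttagtca, which begin 31 bases before the KEAP1 start and 34 before the GCLM start. A further match of TXNRD1, gctccgtca, runs across the first of its starts and is not in capitals. A match is a description of these letters and not a measured binding site.

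At 24 hours HFM did not move these genes in one direction. HMOX1, AKR1C1, SLC7A11 and TXNRD1 rose, while KEAP1, GCLM, SRXN1 and NQO1 fell, and NFE2L2 itself was lower by an amount at the threshold of the test. At 12 hours TXNRD1, SLC7A11, NFE2L2 and AKR1C1 rose, and KEAP1 and NQO1 fell. All 10 genes were at log2 4 or more on every array and were tested. HFM against GM gave 6 calls of 10 at 12 hours (4 higher, 2 lower), where limma called 61.9% of the 13130 genes tested (28.9% higher, 33% lower), and 9 of 10 at 24 hours (4 higher, 5 lower), where it called 58.1% (20.6% higher, 37.5% lower). Called means a Benjamini-Hochberg adjusted p under 0.05 over all genes tested. The members' share at 12 hours was close to that of all genes. The 3 GM and 3 HFM arrays did not overlap for 6 of the 10 genes at 12 hours and 9 at 24 hours, against 63.6% and 68.7% of all genes tested. The median change of the 10 genes was 0.12 at 12 hours and -0.08 at 24 hours, against -0.07 and -0.08 over all genes tested, in log2 units.

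**Figure D1:**
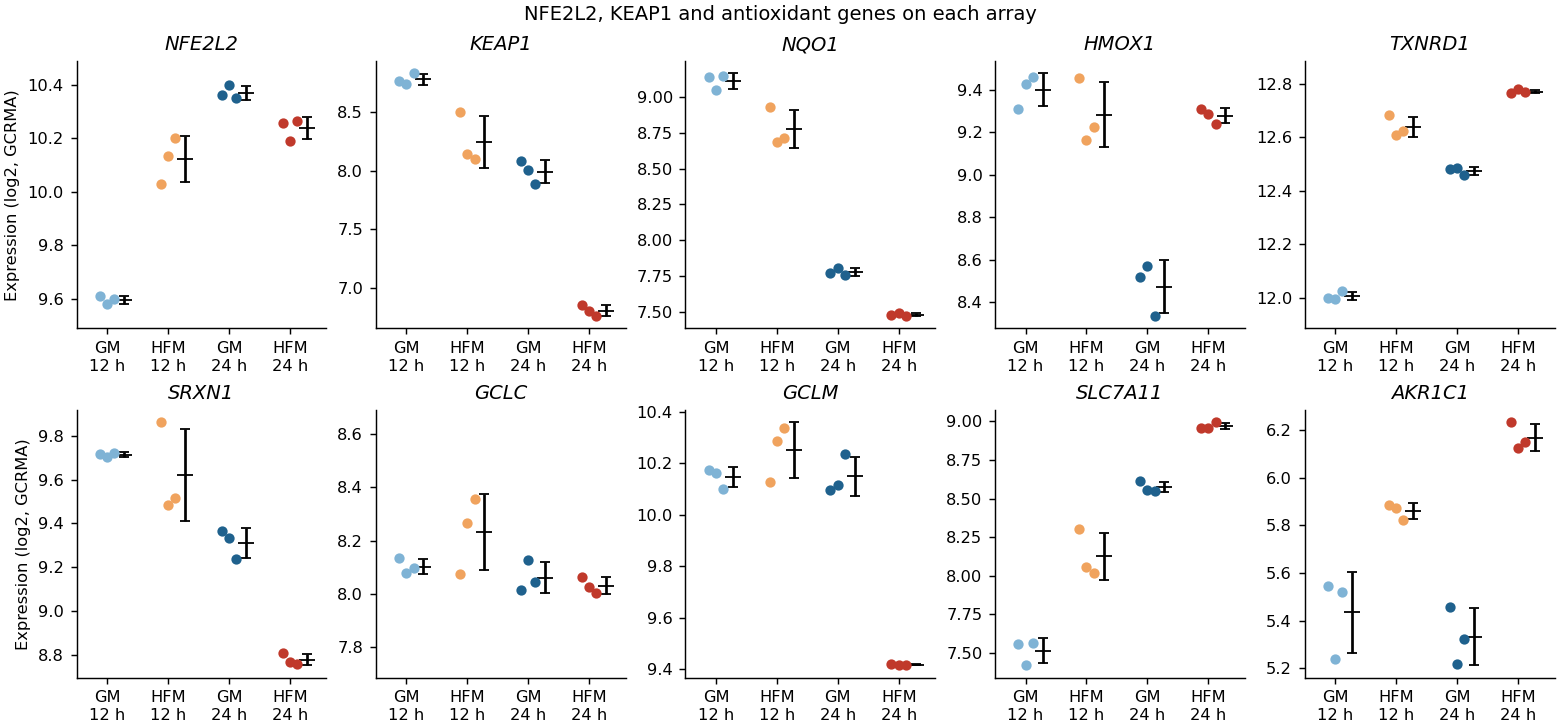
Expression (log2, GCRMA) of the 10 genes on each of the 12 arrays. Dots are arrays, ordered from replicate 1 to 3 within a group, black bars are the group mean ± SD (n = 3), and each panel has its own vertical axis, which does not start at 0. KEAP1 and NQO1 are lowest and SLC7A11, TXNRD1 and AKR1C1 highest in HFM at 24 hours, while HMOX1 is low only in GM at 24 hours.

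KEAP1, the sensor that restrains NRF2, had its lowest level in HFM at 24 hours. It read 8.76, 8.73 and 8.83 in GM and 8.50, 8.14 and 8.09 in HFM at 12 hours. It read 8.08, 8.01 and 7.88 in GM and 6.86, 6.81 and 6.76 in HFM at 24 hours. No 2 of the 4 groups overlapped, in the order HFM at 24 hours, GM at 24 hours, HFM at 12 hours and GM at 12 hours from low to high. HFM against GM was -0.53 ± 0.09 (SE, adjusted p = 0.00051) at 12 hours and -1.18 ± 0.09 (adjusted p = 5.6e-07) at 24 hours, the latter a 2.26-fold lower level. With time KEAP1 changed by -0.78 ± 0.09 in GM and -1.43 ± 0.09 in HFM, both called. These are values of whole cultures, in which fewer expressing cells and less RNA per cell cannot be told apart.

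NFE2L2 differed mainly between GM at 12 hours and the other 3 groups. It read 9.61, 9.58 and 9.60 in GM and 10.03, 10.13 and 10.20 in HFM at 12 hours, and 10.36, 10.40 and 10.35 in GM and 10.26, 10.19 and 10.27 in HFM at 24 hours. The groups did not overlap at either time, but HFM was the higher at 12 hours and the lower at 24 hours. HFM against GM was 0.53 ± 0.05 (SE, adjusted p = 6.3e-06) at 12 hours, a 1.44-fold rise. At 24 hours it was -0.13 ± 0.05 (adjusted p = 0.0496), and this call was lost when any 1 of 10 arrays was left out (adjusted p up to 0.16, without HFM 24-hour replicate 2) and with the replicate number as a block (adjusted p = 0.063). In GM NFE2L2 rose by 0.77 ± 0.05 from 12 to 24 hours, whereas in HFM the difference was 0.12 ± 0.05 (adjusted p = 0.07). The difference in HFM depended on the processing. It was called at 0.33 (adjusted p = 0.00093) with arrays centred on their median and at 0.16 (adjusted p = 0.0255) without HFM 12-hour replicate 3. A robust limma fit with a trend also called it (adjusted p = 0.04). With the probe sets averaged it was at -0.088 (adjusted p = 0.28).

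Of the glutathione genes, the cystine importer rose in HFM and the modifier subunit of the first enzyme of glutathione synthesis fell at 24 hours. SLC7A11, the light chain of the cystine and glutamate exchanger, read 7.56, 7.42 and 7.56 in GM and 8.30, 8.06 and 8.02 in HFM at 12 hours. At 24 hours it read 8.61, 8.56 and 8.55 in GM and 8.96, 8.95 and 8.99 in HFM. It was the only one of the 10 genes whose 4 groups rose without overlap in the order GM and HFM at 12 hours, then GM and HFM at 24 hours. HFM raised it by 0.61 ± 0.07 (SE, adjusted p = 2.4e-05) at 12 hours and 0.40 ± 0.07 (adjusted p = 0.00051) at 24 hours, and time raised it by 1.06 ± 0.07 in GM and 0.84 ± 0.07 in HFM. SLC7A11 is also a known target of the stress factor ATF4.

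GCLM, the modifier subunit of glutamate-cysteine ligase, was lowest in HFM at 24 hours at its main probe set. It read 10.17, 10.16 and 10.10 in GM and 10.13, 10.28 and 10.34 in HFM at 12 hours, groups that overlapped. At 24 hours it read 10.10, 10.12 and 10.24 in GM and 9.42, 9.41 and 9.42 in HFM. The HFM arrays lay below all 9 others, and HFM against GM was -0.73 ± 0.06 (SE, adjusted p = 8.5e-07) at 24 hours, a 1.66-fold lower level, and 0.10 ± 0.06 (adjusted p = 0.16) at 12 hours. GCLC, the catalytic subunit of the same enzyme, ranged from 8.004 to 8.35 over all 12 arrays. Its HFM difference was 0.13 ± 0.07 (adjusted p = 0.11) at 12 hours and -0.03 ± 0.07 (adjusted p = 0.74) at 24 hours, and neither passed the test. From 12 to 24 hours in HFM it fell by 0.20 ± 0.07 (adjusted p = 0.021), a call that was lost without HFM 12-hour replicate 2 or 3 or HFM 24-hour replicate 2 or 3 (adjusted p from 0.052 to 0.086).

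The thioredoxin genes moved in opposite directions. TXNRD1, the cytosolic reductase of thioredoxin, read 12.00, 12.00 and 12.02 in GM and 12.68, 12.61 and 12.62 in HFM at 12 hours. At 24 hours it read 12.48, 12.48 and 12.46 in GM and 12.77, 12.78 and 12.77 in HFM, so that HFM was the higher without overlap at both times. HFM raised it by 0.63 ± 0.04 (SE, adjusted p = 3.3e-07) at 12 hours and 0.30 ± 0.04 (adjusted p = 7.3e-05) at 24 hours, which are 1.55-fold and 1.23-fold. SRXN1, which repairs overoxidised peroxiredoxins, read 9.72, 9.70 and 9.72 in GM and 9.86, 9.48 and 9.51 in HFM at 12 hours. At 24 hours it read 9.36, 9.33 and 9.23 in GM and 8.81, 8.77 and 8.76 in HFM. HFM against GM was -0.53 ± 0.09 (adjusted p = 0.00019) at 24 hours, whereas the difference at 12 hours was -0.10 ± 0.09 (adjusted p = 0.35) with 1 HFM array above and 2 below the GM arrays.

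HMOX1, heme oxygenase, was lowest in GM at 24 hours. It read 9.31, 9.43 and 9.46 in GM and 9.46, 9.17 and 9.23 in HFM at 12 hours, groups that overlapped. At 24 hours it read 8.52, 8.57 and 8.33 in GM and 9.31, 9.29 and 9.24 in HFM. HFM against GM was 0.80 ± 0.08 (SE, adjusted p = 5.1e-06) at 24 hours, a 1.75-fold higher level, and -0.12 ± 0.08 (adjusted p = 0.24) at 12 hours. With time HMOX1 fell by 0.92 ± 0.08 (adjusted p = 1.9e-06) in GM and differed by -0.0048 ± 0.08 (adjusted p = 0.97) in HFM. HMOX1 fell with time in GM, and no change with time was detected in HFM.

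NQO1, a quinone reductase often used as a readout of NRF2 activity, changed more with time than with medium. It read 9.14, 9.05 and 9.14 in GM and 8.93, 8.69 and 8.71 in HFM at 12 hours, and 7.77, 7.81 and 7.76 in GM and 7.48, 7.50 and 7.47 in HFM at 24 hours. The 4 groups did not overlap. HFM against GM was -0.33 ± 0.06 (SE, adjusted p = 0.00088) at 12 hours and -0.30 ± 0.06 (adjusted p = 0.0016) at 24 hours, and the difference between these effects was 0.03 ± 0.09 (adjusted p = 0.77). That difference was called at 0.24 (adjusted p = 0.0067) with arrays centred on their median and at -0.42 (adjusted p = 0.021) at another NQO1 probe set, so neither its size nor its direction is settled. From 12 to 24 hours NQO1 changed by -1.33 ± 0.06 in GM, a 2.51-fold lower level, and by -1.29 ± 0.06 in HFM. AKR1C1, an aldo-keto reductase of steroids and reactive aldehydes, read 5.55, 5.24 and 5.52 in GM and 5.89, 5.87 and 5.82 in HFM at 12 hours, and 5.46, 5.22 and 5.33 in GM and 6.23, 6.12 and 6.15 in HFM at 24 hours. HFM was the higher without overlap at both times, by 0.43 ± 0.08 (adjusted p = 0.0011) and 0.84 ± 0.08 (adjusted p = 4.1e-06). The AKR1C1 probe set is of a type that can cross-hybridise with near-identical genes, and AKR1C2, which also rose (0.68 ± 0.10, adjusted p = 6.8e-05 at 24 hours), was read by a probe set of the same type, so the signal cannot be assigned to AKR1C1 alone.

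The effect of HFM itself differed between the 2 times for 7 of the 10 genes (2 higher at 24 than at 12 hours, 5 lower), where 52.8% of all genes were called (19.4% higher, 33.4% lower).

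**Figure D2:**
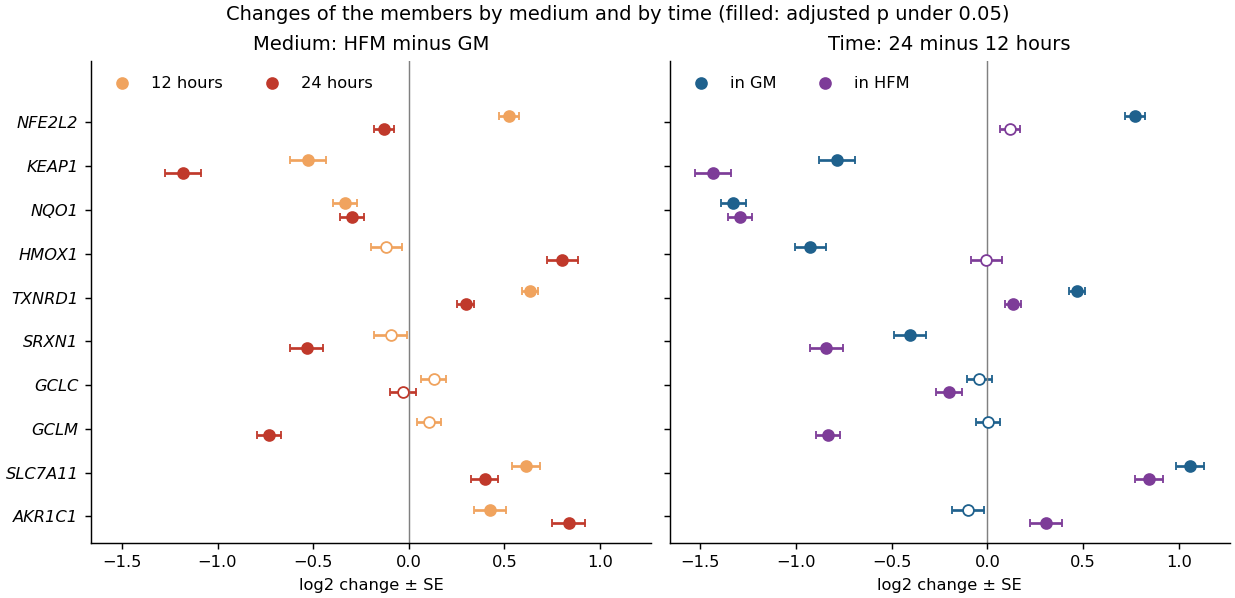
Log2 change ± SE of the 10 genes by medium (left, HFM minus GM at 12 and 24 hours) and by time (right, 24 minus 12 hours in GM and in HFM), from the limma fit to 12 arrays. Filled points have an adjusted p under 0.05. KEAP1 and NQO1 lie left of 0 in all 4 comparisons, SLC7A11 and TXNRD1 lie right of 0 in all 4, and HMOX1 moved by medium at 24 hours and by time in GM.

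The calls by time numbered 7 of 10 in GM (3 higher, 4 lower), where 69.9% of all genes were called (29.4% higher, 40.5% lower), and 8 of 10 in HFM (3 higher, 5 lower), where 63.1% were called (20.1% higher, 43.1% lower). The time comparison in GM and the medium comparison at 12 hours use the same GM arrays at 12 hours. NFE2L2, for example, was 0.77 in the first and 0.53 in the second, KEAP1 -0.78 and -0.53, and SLC7A11 1.06 and 0.61. Not all 10 genes ran in parallel. HMOX1 was at -0.92 and -0.12, AKR1C1 at -0.10 and 0.43, and GCLC at -0.04 and 0.13. The groups did not overlap for 7 genes by time in GM and 8 in HFM, against 78.9% and 65.9% of all genes. The GM arrays were all in the higher class of hybridisation controls at 12 hours and all in the lower one at 24 hours. Within GM the class and time cannot be told apart, and a term for the class is set by 1 array alone, HFM replicate 1 against replicates 2 and 3 at 12 hours. With that term SRXN1 by time in GM was at -0.04 (adjusted p = 0.64) and no longer called, against -0.40 (adjusted p = 0.0013) without it, and GCLC was at -0.27 (adjusted p = 0.011) and newly called, against -0.04 (adjusted p = 0.59).

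HFM replicate 1 at 12 hours, the HFM array with the higher hybridisation controls, was closer to GM than the other 2 HFM arrays for KEAP1, NQO1 and NFE2L2 and farther from it for SLC7A11 and TXNRD1. Without it, all 10 genes were called at 12 hours (6 higher, 4 lower) with 68.5% of all genes called. Then HMOX1 was at -0.20 (adjusted p = 0.026), SRXN1 at -0.22 (adjusted p = 0.0013), GCLC at 0.21 (adjusted p = 0.0025) and GCLM at 0.17 (adjusted p = 0.011). With a term for the class of the hybridisation controls, in which this array is the only HFM array set against GM at 12 hours, SRXN1 was at 0.15 (adjusted p = 0.04), so its direction at 12 hours depends on this array. In that fit NFE2L2 stayed higher at 0.43 (adjusted p = 5.4e-05), TXNRD1 at 0.68, SLC7A11 at 0.79 and AKR1C1 at 0.45, and KEAP1 stayed lower at -0.28 (adjusted p = 0.0092) and NQO1 at -0.18 (adjusted p = 0.012).

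The 25 probe sets annotated to one of these genes alone gave a check on the values. Of these, 21 passed the filter and were tested among all probe sets. KEAP1, HMOX1 and SRXN1 had 1 probe set each, and the second of TXNRD1 had a mean of 1.70. The other probe sets of NQO1 were at -0.32 (adjusted p = 0.013) and -0.29 (adjusted p = 0.018) at 24 hours, and those of GCLM at -0.55 (adjusted p = 0.0081) and -0.43 (adjusted p = 0.007), in the direction of the main ones. At 12 hours 1 of the other NQO1 probe sets was at 0.10 (adjusted p = 0.37), against -0.33 for the main one, and 1 of the others of GCLM, at 0.38 (adjusted p = 0.014), was called where the main one was not. By time in GM both others of GCLM rose, by 0.48 and 0.50, whereas no change was detected at the main one. Their mean in HFM at 24 hours was near that in GM at 12 hours, at 8.43 against 8.50 for one and 7.81 against 7.74 for the other, unlike the main probe set, where HFM at 24 hours lay below every other group. A second probe set of NFE2L2 was at 0.51 (adjusted p = 0.0067) at 12 hours and -0.18 (adjusted p = 0.27) at 24 hours, and another, with a mean of 3.93, was not called at either time. A second probe set of SLC7A11 was at 0.65 at 12 hours and 0.60 at 24 hours, and another, with a mean of 4.98, was not called at either time. A second probe set of GCLC differed from the main one, at 0.50 (adjusted p = 5.0e-05) at 12 hours and 0.14 (adjusted p = 0.082) at 24 hours, and rose by 0.27 from 12 to 24 hours in GM. For AKR1C1, a second probe set was at 0.25 (adjusted p = 0.08) at 12 hours and 0.47 (adjusted p = 0.0032) at 24 hours. Another, of a type designed to match a single gene, was at 0.09 (adjusted p = 0.44) and 0.05 (adjusted p = 0.68) with a mean of 4.24.

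**Figure D3:**
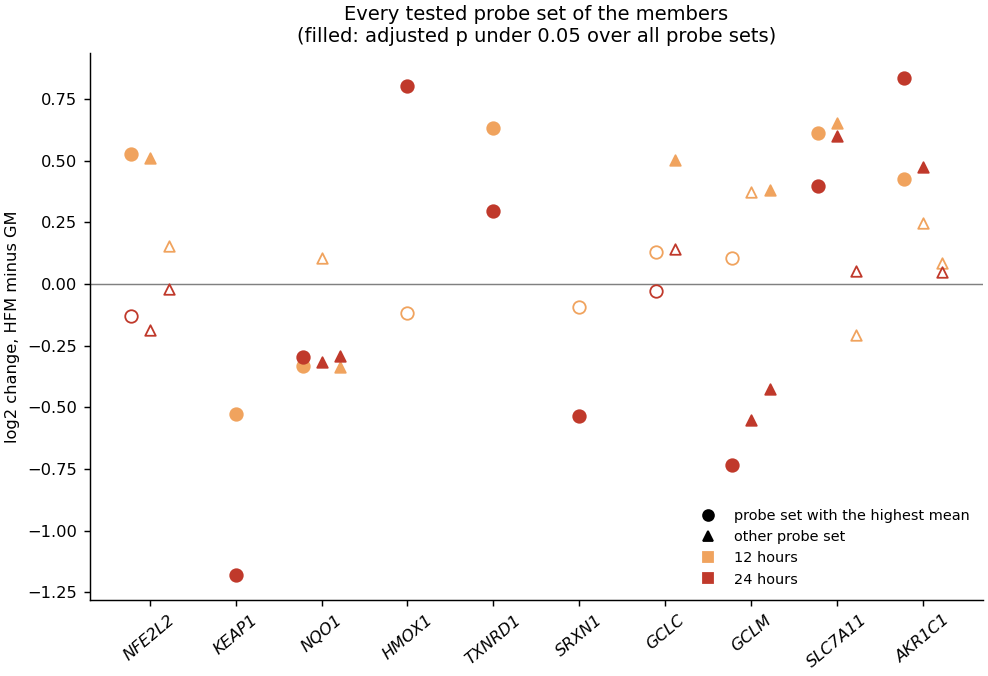
Log2 change by medium at 12 and 24 hours for each of the 21 tested probe sets. Circles mark the probe set with the highest mean of a gene, triangles the others, and filled symbols an adjusted p under 0.05 over all probe sets tested. The 3 probe sets of GCLM are all below 0 at 24 hours, whereas those of GCLC, SLC7A11 and AKR1C1 differ among themselves. At 12 hours the probe sets of NQO1 lie on both sides of 0, and those of NFE2L2 and GCLM are not all filled.

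Of the 53 other genes listed for the pathway, 43 were tested. At 12 hours 13 rose and 10 fell, with 20 not called, and at 24 hours 12 rose and 16 fell, with 15 not called. Of all genes tested, 61.9% were called at 12 hours (28.9% higher, 33% lower) and 58.1% at 24 hours (20.6% higher, 37.5% lower). The share of these 43 called in either direction was below that of all genes at 12 hours and above it at 24 hours. Neither gap was tested. Their median change was 0.05 and -0.01 log2 units, against -0.07 and -0.08 over all genes. Among the regulators of NRF2, 6 of 13 rose and 4 fell at 12 hours, where 61.9% of all genes were called, and 5 rose and 7 fell at 24 hours, where 58.1% were. BACH1, the repressor that competes with NRF2 at HMOX1 and other targets, rose by 0.83 ± 0.07 (SE, adjusted p = 2.9e-06) at 12 hours and by 1.64 ± 0.07 (adjusted p = 5.0e-09) at 24 hours, where its mean level was 9.43 ± 0.06 (SD, n = 3) in HFM against 7.79 ± 0.02 in GM. MAFF, a small MAF partner, changed by -0.77 ± 0.04 at 12 hours and 0.77 ± 0.04 at 24 hours. The kinase GSK3B, which marks NRF2 for degradation independently of KEAP1, changed by 0.44 ± 0.07 and -1.06 ± 0.07. CUL3 and RBX1, the ligase partners of KEAP1, were named after their values were seen, and changed by 0.57 and 0.19 at 12 hours and by -0.60 and -0.36 at 24 hours.

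The counts of the smaller lists are to be read against the same shares of all genes, 28.9% higher and 33% lower at 12 hours and 20.6% and 37.5% at 24 hours. Of 5 tested enzymes that supply NADPH, 2 rose and 2 fell at 12 hours, and 0 rose and 3 fell at 24 hours. Malic enzyme ME1 rose by 0.43 at 12 hours, PGD of the pentose phosphate pathway changed by -0.33 and -0.31 at the 2 times, and IDH1 by -0.35 at 24 hours. Of 8 tested thioredoxin and glutathione genes, 3 rose and 2 fell at 12 hours and 1 rose and 2 fell at 24 hours. Glutathione synthetase GSS was at -0.42 and the microsomal transferase MGST1 at 0.31 at 12 hours, and the glutathione transferases GSTM4 and GSTM3 were at -0.54 and -0.27 at 24 hours. Of 5 tested iron and heme genes, 0 rose and 1 fell at 12 hours (BLVRB, a biliverdin reductase, at -0.37), and 1 rose and 1 fell at 24 hours (the ferritin light chain FTL at 0.15 and FECH, which inserts iron into heme, at -0.47). Of 12 tested detoxification and export genes, 2 rose and 1 fell at 12 hours and 5 rose and 3 fell at 24 hours. UGDH, which makes UDP-glucuronate, rose by 0.56 and 0.70, and the quinone reductase NQO2 was at -0.33 at 12 hours.

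**Figure D4:**
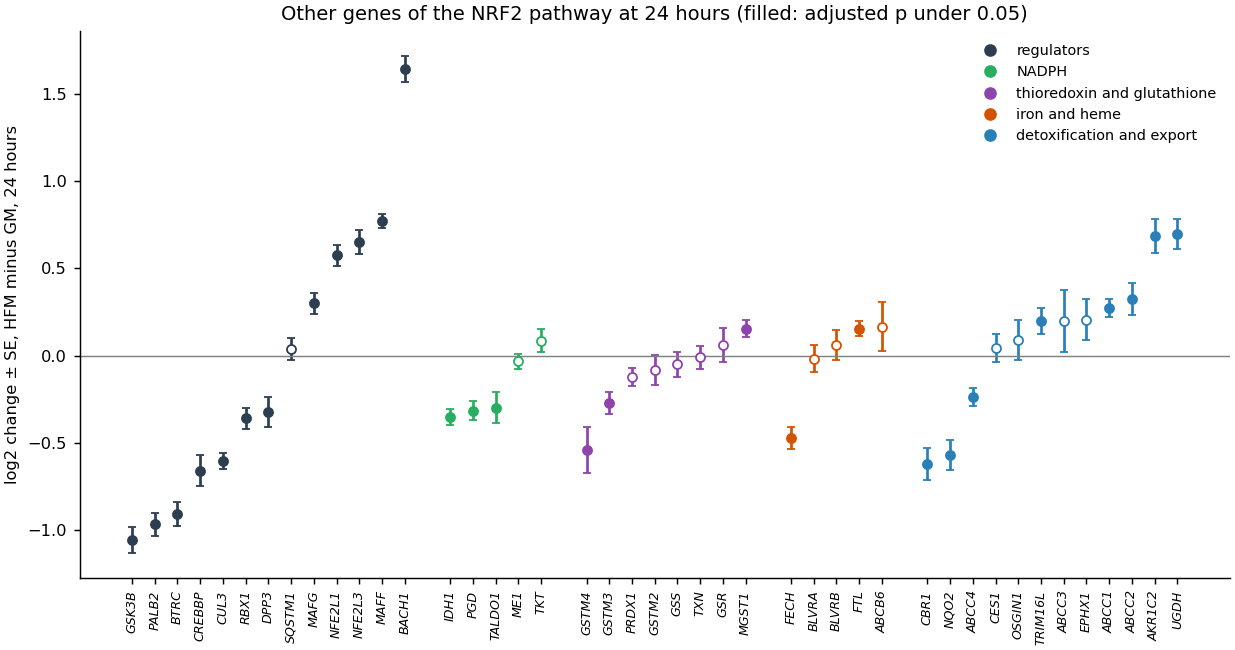
Log2 change ± SE (HFM minus GM at 24 hours) of the 43 tested genes of 5 lists of the NRF2 pathway, sorted within each list. Filled points have an adjusted p under 0.05. The regulators spread widest, from GSK3B at -1.06 to BACH1 at 1.64.

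The genes with the profile most like that of NFE2L2, among those tested whose mean level was at least log2 6, were UBE3A, CRYZ and PCLAF, with a Pearson r of 0.992, 0.991 and 0.99 over the 12 arrays. For KEAP1 they were GNA11, TIMM8B and FTSJ3, each with r = 0.999. These values describe 4 groups of arrays rather than 12 independent points, and are given without a test.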

How the data were processed

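The deposited values are log2 expression per probe set. The authors used GCRMA, per the submitters' processing notes, in a version that the sources used here do not give. The log2 scale follows from GCRMA and the range of the values. GCRMA corrects background, normalises between arrays and summarises probe sets. Of 54675 probe sets, 41097 carried 1 symbol, 1801 several and 11777 none in the platform's annotation, and only the first kind was named. Each gene was read at its probe set with the highest mean, and 13130 genes that reached log2 4 on 3 or more arrays entered the test. Group means of the 12 arrays were fitted with limma 3.58.1 in R 4.3.3, with Benjamini-Hochberg adjustment over all genes tested and a threshold of 0.05. All p-values are from limma unless a permutation is named. The pipeline was tested on simulated data. Figures were drawn with matplotlib 3.10.9. The number of arrays limits the precision.

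The members, lists and tests were chosen with earlier results of these data known. Named genes of the other lists were the 2 called genes with the largest change per list at 12 and at 24 hours. The 3 most like genes were named for NFE2L2 and KEAP1. The replicate number was not taken to pair arrays, because the labels do not say what it marks. Same-numbered arrays of different groups deviated together (correlation over 0.1) in 7 of 18 pairs, with correlations from -0.17 to 0.42. Some arrays with different numbers also did, at up to 0.44, so these values do not settle whether arrays were paired.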

Additional observations from a re-analysis of the deposited data

Results flagged for a closer look

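The effect of HFM differed between 24 and 12 hours for 7 of the 10 genes in a test of the difference itself (limma, adjusted p under 0.05), where 52.8% of all genes tested were called (19.4% higher, 33.4% lower). It was lower at 24 than at 12 hours for GCLM by -0.84 ± 0.09 (SE, adjusted p = 9.4e-06), NFE2L2 by -0.66 ± 0.07 (adjusted p = 1.8e-05), KEAP1 by -0.65 ± 0.13 (adjusted p = 0.0016), SRXN1 by -0.44 ± 0.12 (adjusted p = 0.0097) and TXNRD1 by -0.34 ± 0.06 (adjusted p = 0.0006). It was higher at 24 hours for HMOX1 by 0.92 ± 0.12 (adjusted p = 4.8e-05) and AKR1C1 by 0.41 ± 0.12 (adjusted p = 0.013). When the probe sets of each gene were averaged, TXNRD1 was at -0.16 (adjusted p = 0.09) and AKR1C1 at 0.15 (adjusted p = 0.094), and neither was called. These averages take in probe sets that did not pass the filter, for TXNRD1 its second, with a mean of 1.70. AKR1C1 was at -0.037 (adjusted p = 0.83) without _x_at and _s_at probe sets. For NQO1, SLC7A11 and GCLC the difference was 0.03, -0.22 and -0.16 and did not pass the test. Some alternatives called these: NQO1 at 0.24 (adjusted p = 0.0067) with arrays centred on the median, SLC7A11 at -0.39 (adjusted p = 0.0014) with the term for hybridisation class and -0.27 (adjusted p = 0.046) without HFM 12-hour replicate 3, and GCLC at -0.36 (adjusted p = 0.0061) without _x_at and _s_at probe sets and -0.24 (adjusted p = 0.0074) without HFM 12-hour replicate 1.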

How the results depend on the processing

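Of the changes of single genes over all alternatives, 1053 kept their direction and their side of the threshold, 33 lost a call, 19 gained one and 30 changed sign. Alternatives that alter only the filter, the test or the block, or leave out an array of another group, cannot alter a direction. The 1053 is thus no measure of how stable the directions are. Changes of sign were counted apart from calls gained, also where a call was gained, as for GCLC at 24 hours with probe sets averaged (0.28, adjusted p = 0.0026). With one array left out at a time, the members called numbered 6 to 10 at 12 hours (10 without HFM replicate 1), 8 to 9 at 24 hours, 7 to 8 for the difference between times, 7 to 8 by time in GM and 6 to 8 by time in HFM. GCLC at 24 hours then ranged from -0.053 to 0.0034, the difference between times of NQO1 from -0.0097 to 0.11, GCLM by time in GM from -0.039 to 0.031 and HMOX1 by time in HFM from -0.063 to 0.082.

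With all 24649 probe sets tested, 14665 were called at 12 hours, 14509 at 24 hours, 12989 for the difference, 16399 by time in GM and 15541 by time in HFM, since more units were tested. When the probe sets of each gene were averaged, 5 members were called by time in HFM, GCLC was at 0.28 (adjusted p = 0.0026) at 24 hours, 0.15 by time in GM and 0.13 in HFM, NFE2L2 at -0.088 by time in HFM and the differences of NQO1, TXNRD1 and AKR1C1 at -0.11, -0.16 and 0.15, the last 2 no longer called. Without _x_at and _s_at probe sets, 5 of 9 members were called by time in HFM, where 62.1% of all genes were called. GCLC was then at 0.14 at 24 hours and 0.27 by time in GM, and AKR1C1 at -0.037 for the difference and -0.039 by time in HFM. AKR1C1 by medium was then at 0.087 (adjusted p = 0.43) and 0.05 (adjusted p = 0.68) and not called. These alternatives read other probe sets of the gene.

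Subtracting each array's median moved the median of all genes at 24 hours from -0.08 to 0.10 and the higher share of calls from 35.4% to 58.6%, that of the difference from 36.8% to 61.8% (47.4% after repeated quantile normalisation) and that of time in HFM from 31.8% to 57.5%. The NQO1 difference was then called at 0.24 (adjusted p = 0.0067), and NFE2L2 at 24 hours was at 0.048 (adjusted p = 0.54), GCLC at 0.15, its difference at 0.044 and by time in HFM at 0.017, and HMOX1 by time in HFM at 0.21 (adjusted p = 0.014). NFE2L2 by time in HFM was newly called at 0.33 (adjusted p = 0.00093). Repeated quantile normalisation gave 0.0056 for GCLC at 24 hours, -0.041 for GCLM by time in GM and 0.0054 for HMOX1 by time in HFM. With the term for hybridisation class, HMOX1, SRXN1, GCLC and GCLM at 12 hours were at 0.056, 0.15, -0.026 and -0.017, the differences of NQO1 and SLC7A11 at -0.12 and -0.39 (the latter newly called), GCLC by time in GM at -0.27 (newly called), GCLM by time in GM at -0.18 and HMOX1 by time in HFM at 0.082, and the higher share of calls by time in GM went from 42% to 52.8%. The cause of these shifts was not tested.

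With the replicate number as a block, NFE2L2 at 24 hours was at -0.13 (adjusted p = 0.063), and no other member's call changed. The block gave 8267, 7757, 7073, 9247 and 8367 calls over all genes in the 5 comparisons, against 8123, 7623, 6931, 9182 and 8290. Between alternatives the adjusted p of NFE2L2 at 24 hours ran from 0.0079 to 0.54. The use of only the groups compared gives no value for the difference between times, which needs all 4.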
